A study of Sus scrofa with 23 samples.

Results

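Gene expression of 6 fibrous tissue genes was examined in pig articular cartilage: the fibril collagen genes COL1A2, COL3A1, COL5A1 and COL5A2, the microfibril gene MFAP5 and MYOC, which encodes myocilin. COL1A1 belongs to the same set, but no probe set carried its symbol, and it was not analysed here. All probe sets whose annotated symbol was exactly one of these names were taken, which gave 13 of the 23999 probe sets that are not controls: 6 for COL5A1, 2 each for COL1A2 and COL5A2, and 1 each for COL3A1, MFAP5 and MYOC. A test was possible for 11 of the 13. The COL3A1 probe set (mean log2 value 5.02) and the COL5A1 probe set Ssc.16329.1.S1_at (mean 5.06) lay under the filter on dim probe sets at 5.30 and are described only.

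The samples came from Duroc and Pietrain crossbred pigs with or without osteochondrosis, a disease of young joints in which the ordered replacement of cartilage by bone fails in places. Cartilage was taken from the inner part of the condyle of the humerus at the elbow or of the femur at the knee, and its total RNA was hybridised to a short-oligonucleotide array. The 4 groups, counted after 2 pairs of nearly identical arrays had been averaged, were humerus non-affected (n = 6), humerus affected (n = 7), femur non-affected (n = 4) and femur affected (n = 4). The labels name no age and no treatment, and do not say which animals were sibs or whether samples of a group came from separate animals, so p-values reflect the spread of these samples and no more. Values are on a log2 scale, on which 1 unit is a doubling of signal, and the deposited table has a floor at 4.

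Type I collagen is the main collagen of bone, tendon and other fibrous tissue, and type III collagen accompanies it in vessels and loose tissue. Type V collagen is a minor partner that starts fibrils and limits their width. Hyaline cartilage is built instead on type II collagen and aggrecan. Microfibrils are thin fibrillin strands to which MFAP5 binds, and myocilin is a secreted glycoprotein best known from the outflow tissue of the eye.

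Cartilage markers were high in every group. The COL2A1 values ran from 10.51 to 12.58 and those of ACAN, the aggrecan gene, from 13.07 to 14.02, and the mean of the 6 measured cartilage markers lay between 11.12 and 12.34 in all samples. On the first principal component (43.5% of the variance) the sites lay largely apart but overlapped. Femoral samples ran from 26.9 to 58.4 and humeral samples from -53.2 to 29.0. The sample labelled humerus non-affected 5 lay at 29.0, inside the femoral range, and 9 of its 13 member values fell outside the range of the other samples of its group. Its value for IBSP, the bone sialoprotein gene, was 6.41, against 12.04 to 13.01 in the others of that group. Femur non-affected 4, at 26.9, was outside its group for 8 of 13 member values, and its IBSP value was 9.42 where the other 3 samples had 4.0, 4.0 and 4.66. Several results are therefore also given without them. Both samples were picked after seeing the data, in part by these member values. Wider site differences and smaller p-values without them follow in part from that choice and are no further support.

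The members differed between the joints far more than between affected and non-affected cartilage. In the fit over both statuses 8 of the 11 tested probe sets passed an adjusted p of 0.05, a share of 72.7% beside 51.8% of all 16799 probe sets tested. All 5 tested COL5A1 probe sets were higher in the femur, where 17.6% of all probe sets were called higher. MFAP5, MYOC and 1 COL1A2 probe set were lower in the femur, where 34.2% were called lower. Site was also marked by technical values: 9 spiked-in hybridisation controls, which carry no pig RNA, were higher on the femoral arrays by 0.21 to 1.62, and 8 of them did not overlap between the sites. Site and hybridisation therefore cannot be told apart. Between affected and non-affected arrays the same controls differed by -0.04 to 0.07 in the femur and by -0.06 to 0.001 in the humerus.

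The median of all probe sets was 0.12 lower in the femur as deposited, 0.05 higher after each array was centred on its median and 0.03 higher after quantile normalisation. The share of site calls that were higher in the femur moved with it, from 34.0% to 56.7% and 54.9%. All 5 COL5A1 probe sets, MFAP5 and MYOC kept direction and call under both scalings, but the COL1A2 probe set did not keep its call (adjusted p = 0.166 and 0.112).

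**Figure D1:**
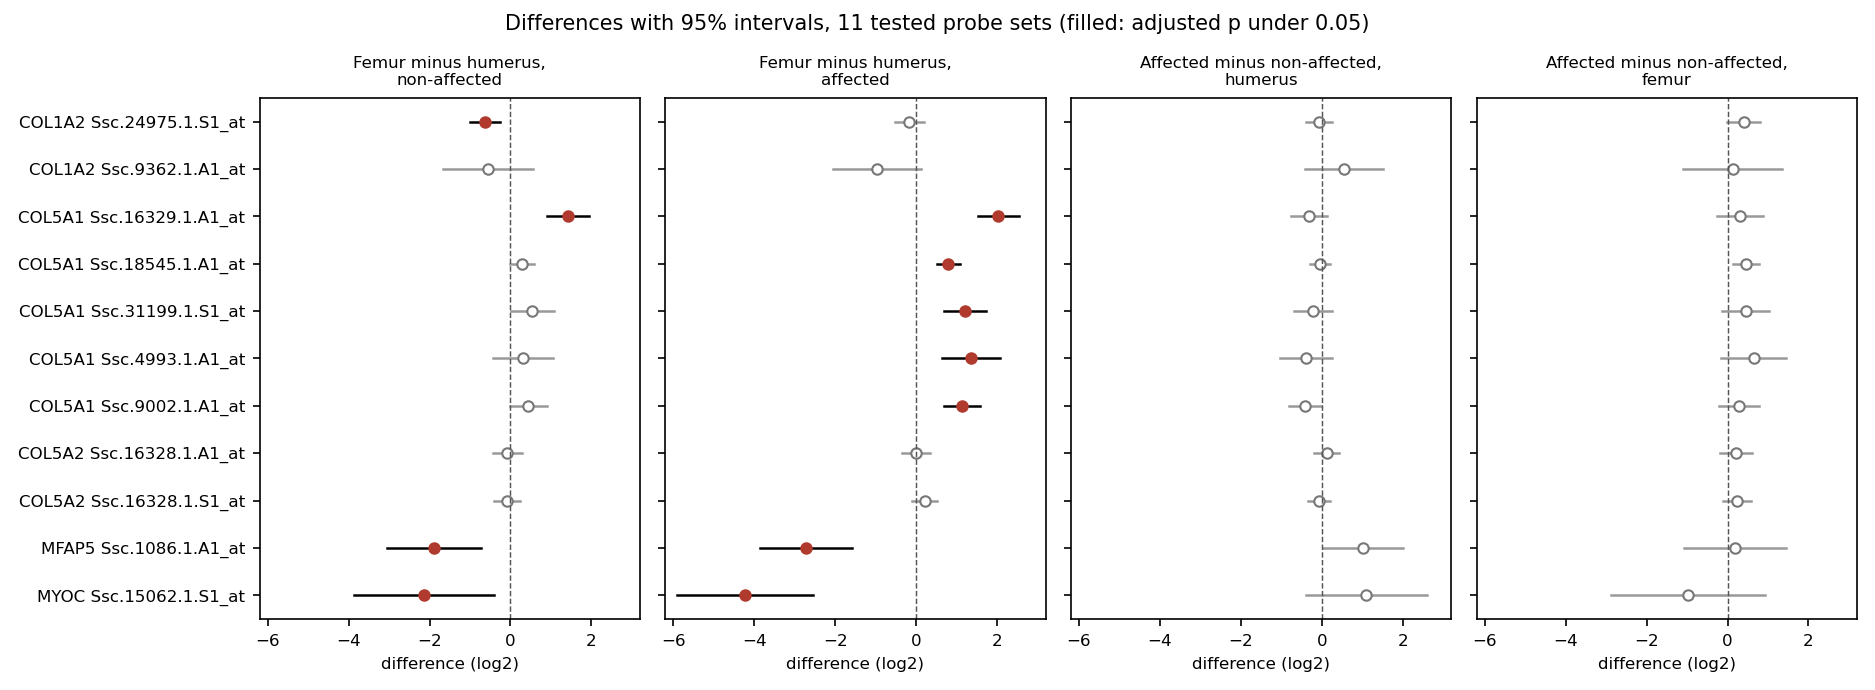
Log2 differences with 95% intervals of the 11 tested probe sets, as femur minus humerus in non-affected and in affected samples and as affected minus non-affected in humerus and in femur; filled points passed an adjusted p of 0.05. The 5 COL5A1 points lie right of 0 and MFAP5 and MYOC left of 0 in both site panels, and no point is filled in either status panel.

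COL1A2 encodes the second chain of type I collagen. Its brighter probe set, Ssc.24975.1.S1_at, read 8.57, 9.64, 9.07 and 9.11 in non-affected femur and 9.13, 9.58, 9.68 and 9.61 in affected femur. In the humerus the lowest, median and highest values were 9.37, 9.85 and 9.996 in non-affected and 9.23, 9.75 and 9.88 in affected samples. The femoral values were lower on the whole but overlapped the humeral ones, in non-affected as well as in affected samples.

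The difference between femur and humerus for that probe set was -0.39 ± 0.13 (SE, adjusted p = 0.0172) over both statuses. Among non-affected samples it was -0.63 ± 0.18 (adjusted p = 0.0101), and among affected samples -0.17 ± 0.17 (adjusted p = 0.472). The non-affected call was lost without the averaged femur non-affected sample 1-2 (adjusted p = 0.0503) and after arrays were centred on their medians (0.0574). Whether the site differences of the affected and the non-affected samples were unequal is what the interaction tests, and it did not pass (0.47 ± 0.25, adjusted p = 0.307).

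The second COL1A2 probe set, Ssc.9362.1.A1_at, gave another pattern. It lay between 6.29 and 7.45 in all 8 femoral samples. In the humerus it ran from 6.39 through a median of 7.11 to 9.66, and 3 of 13 samples stood above 8: humerus non-affected 2 at 9.63 and humerus affected 1 and 4 at 9.66 and 8.88. Its site difference of -0.77 ± 0.37 did not pass (adjusted p = 0.085), although it did with all 23 arrays entered as separate samples (0.047). The pair of COL1A2 probe sets was loosely related over the 21 samples (r = 0.39, and 0.25 after group means were removed).

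COL3A1, the only chain of type III collagen, was read by 1 dim probe set at the 22.9th percentile of all probe sets. It averaged 5.02 ± 0.35 (SD, n = 4) in non-affected femur, 5.19 ± 0.27 (SD, n = 4) in affected femur, 4.96 ± 0.38 (SD, n = 6) in non-affected humerus and 4.97 ± 0.09 (SD, n = 7) in affected humerus. The order of these 4 means carried no difference beyond the spread: with the filter left out, its differences were between 0.01 and 0.22 in the comparisons within a site or a status, with adjusted p from 0.353 to 0.996.

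COL5A1 encodes the chain found in nearly all type V collagen. Its 6 probe sets are given apart, because they differed widely in signal and signals of different probe sets cannot be set against each other. In each of the 6 the group means had the same order: affected femur highest, then non-affected femur, non-affected humerus and affected humerus.

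The COL5A1 probe set with the widest separation of the joints was Ssc.16329.1.A1_at. It read 8.89, 8.64, 8.12 and 9.01 in non-affected femur and 9.05, 8.89, 8.95 and 8.96 in affected femur. In the humerus the lowest, median and highest values were 6.89, 7.10 and 7.89 in non-affected and 5.85, 7.14 and 7.43 in affected samples. Every femoral sample thus lay above every humeral one, as it did in that direction for 1.73% of all probe sets tested. The lowest femoral value belonged to femur non-affected 4.

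The site difference of this probe set was 1.74 ± 0.18 (SE, adjusted p = 6.22e-07) over both statuses, a 3.33-fold signal. It was 1.42 ± 0.25 in non-affected (adjusted p = 0.000423) and 2.03 ± 0.24 in affected samples (adjusted p = 1.43e-05). No omission of 1 sample ended any of these calls, and without both samples that stood apart the first value was 1.87.

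Ssc.9002.1.A1_at was at the 98.6th percentile of signal. It read 12.05, 12.57, 11.50 and 12.54 in non-affected femur and 12.07, 12.49, 12.34 and 12.87 in affected femur. In the humerus the lowest, median and highest values were 11.43, 11.65 and 12.30 in non-affected and 10.99, 11.20 and 11.72 in affected samples. The affected samples of the joints did not overlap. The overlap among non-affected samples came from femur non-affected 4 at 11.50 and humerus non-affected 5 at 12.30.

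Its site difference was 0.80 ± 0.17 over both statuses (adjusted p = 0.000541) and 1.14 ± 0.21 in affected samples (adjusted p = 0.000509). In non-affected samples it was 0.45 ± 0.22 and not called (adjusted p = 0.116). Without both of the samples named above it became 0.78 (adjusted p = 0.00656), and leaving out either alone was enough for a call.

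Ssc.4993.1.A1_at followed the same course, at the 97.5th percentile. It read 10.88, 11.86, 10.47 and 11.87 in non-affected femur and 11.61, 12.10, 11.37 and 12.56 in affected femur. In the humerus the lowest, median and highest values were 10.61, 10.78 and 11.91 in non-affected and 9.70, 10.56 and 11.40 in affected samples. Here the joints overlapped even among affected samples, because humerus affected 1 at 11.40 lay just above femur affected 3 at 11.37. The site difference was 0.85 ± 0.27 over both statuses (adjusted p = 0.0116), 1.35 ± 0.34 in affected (adjusted p = 0.00468) and 0.32 ± 0.36 in non-affected samples (adjusted p = 0.51). Without both samples that stood apart the last value was 0.77, still not called (adjusted p = 0.0937), and with any 1 of the samples left out it lay between 0.12 and 0.58.

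Ssc.31199.1.S1_at ran from 6.47 to 8.42 in the femur and from 6.10 to 7.09 in the humerus. Its site difference was 0.89 ± 0.19 over both statuses (adjusted p = 0.000638) and 1.21 ± 0.25 in affected samples (adjusted p = 0.001), which did not overlap. Ssc.18545.1.A1_at, the dimmest tested COL5A1 probe set, differed by 0.55 ± 0.11 (adjusted p = 0.000404) and by 0.79 ± 0.14 in affected samples (adjusted p = 0.000251), again without overlap. In non-affected samples neither passed, at 0.54 (adjusted p = 0.101) and 0.28 (adjusted p = 0.115). Both passed there without femur non-affected 4, and without it and humerus non-affected 5 together the values were 0.87 (adjusted p = 0.0151) and 0.39 (adjusted p = 0.0447). They also passed there when arrays were centred on their medians (adjusted p = 0.0369 and 0.013) or quantile normalised (0.0331 and 0.0206), as did Ssc.9002.1.A1_at (0.0367 and 0.0405).

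The untested sixth probe set, Ssc.16329.1.S1_at, read from 4.39 to 7.13 in the femur and from 4.0, the floor, to 5.58 in the humerus. It is a dim probe set, and with the filter left out its site difference was 0.73 ± 0.28 (adjusted p = 0.0389). That difference was 1.31 ± 0.35 in affected samples (adjusted p = 0.00846) and 0.12 ± 0.36 in non-affected samples (adjusted p = 0.842).

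**Figure D2:**
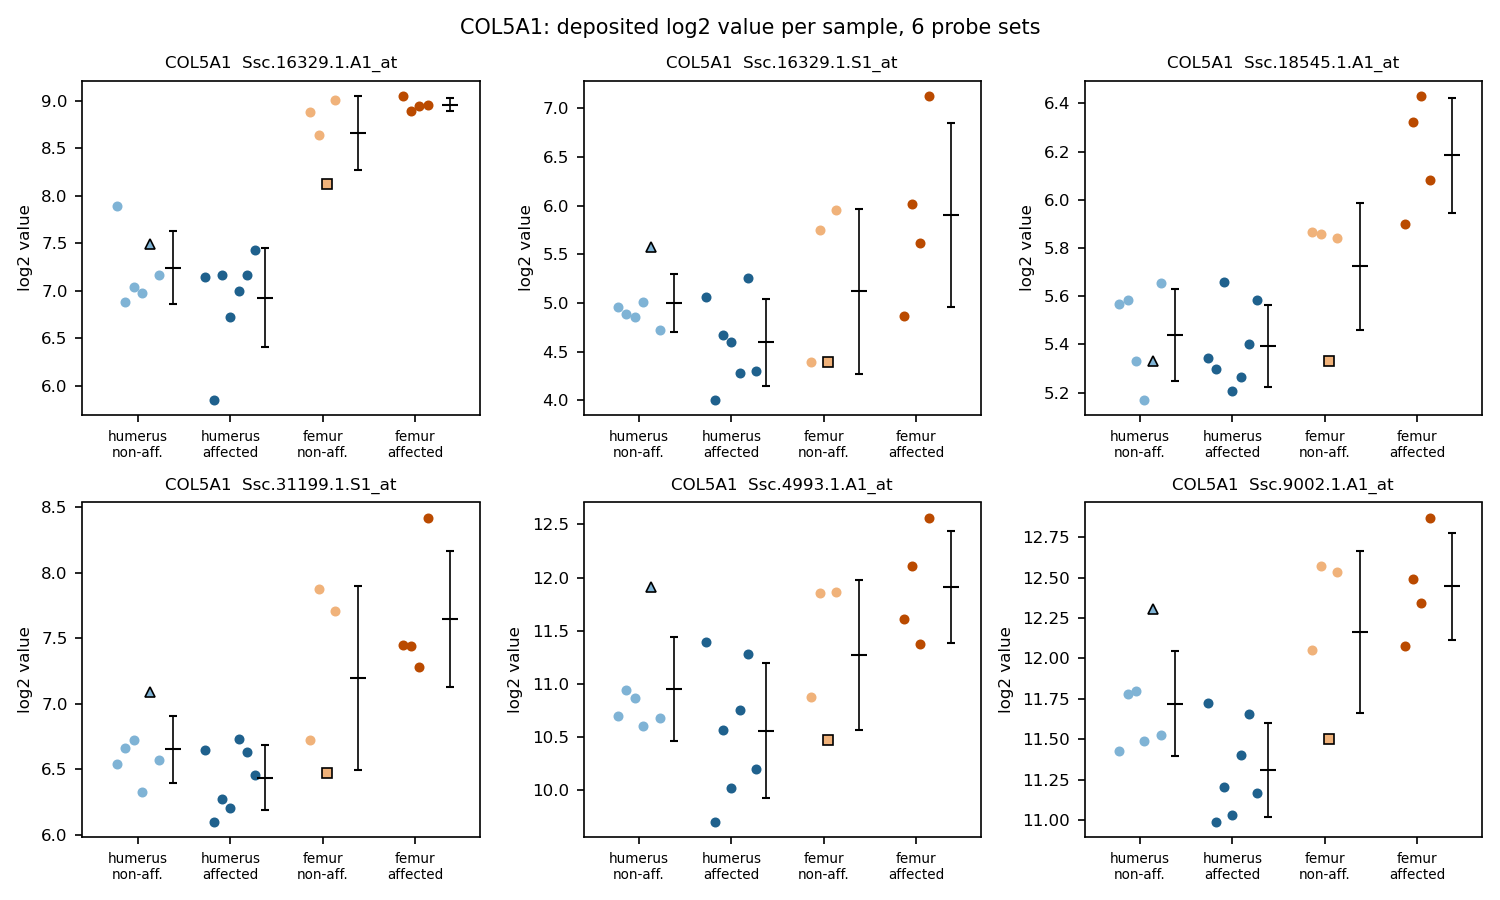
Deposited log2 value of each sample for the 6 COL5A1 probe sets, by group, with the mean and SD drawn beside the points; the triangle is humerus non-affected 5 and the square femur non-affected 4. In every panel affected femur has the highest mean and affected humerus the lowest, and axes differ between panels.

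Over the 21 samples the COL5A1 probe sets fell into closer and looser pairs, given here as a description since the points share arrays and site. Ssc.4993.1.A1_at and Ssc.9002.1.A1_at were related at r = 0.94 both before and after group means were removed. Each also followed Ssc.31199.1.S1_at after that removal (r = 0.84 and 0.87) and Ssc.16329.1.S1_at (r = 0.82 and 0.83). Ssc.18545.1.A1_at and Ssc.16329.1.A1_at stood apart from these 4, with r of 0.14 to 0.24 and of 0.32 to 0.47 after removal. The deposited annotation gives all 6 the same transcript, and which part of it each reads was not analysed here.

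COL5A2 encodes the second chain of type V collagen and was not called in any site comparison. Ssc.16328.1.A1_at averaged 5.66 ± 0.10 (SD, n = 4) in non-affected femur, 5.86 ± 0.49 (SD, n = 4) in affected femur, 5.74 ± 0.17 (SD, n = 6) in non-affected humerus and 5.86 ± 0.24 (SD, n = 7) in affected humerus. Its site difference was -0.04, with a 95% interval from -0.29 to 0.21 (adjusted p = 0.794), and turned to 0.13 after centring and 0.11 after quantile normalisation. Ssc.16328.1.S1_at differed by 0.07, with an interval from -0.16 to 0.30 (adjusted p = 0.629). No 2 of the 4 group means of either probe set differed beyond their spread in the comparisons made. Both probe sets were dim, at percentiles 41.2 and 43.0 of signal.

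MFAP5 encodes a small glycoprotein of fibrillin microfibrils. It read 4.0, 4.03, 4.87 and 4.32 in non-affected femur and 4.01, 4.66, 4.0 and 5.28 in affected femur, so 3 of 8 femoral samples were within 0.01 of the floor. In the humerus the lowest, median and highest values were 4.59, 6.38 and 7.41 in non-affected and 5.55, 7.47 and 8.24 in affected samples. All affected humeral samples lay above all affected femoral ones. Among non-affected samples the single overlap was humerus non-affected 5 at 4.59, below femur non-affected 4 at 4.87.

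The difference of MFAP5 between femur and humerus was -2.32 ± 0.39 over both statuses (adjusted p = 7.47e-05), -1.89 ± 0.56 in non-affected (adjusted p = 0.0128) and -2.72 ± 0.54 in affected samples (adjusted p = 0.000796). No omission of 1 sample ended these calls, and without both samples that stood apart the non-affected value was -2.40. Since femoral values at the floor are limits, no fold is given.

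MYOC was also lower in the femur. It read 5.44, 5.58, 8.47 and 5.65 in non-affected femur and 5.64, 4.48, 5.54 and 5.53 in affected femur. In the humerus the lowest, median and highest values were 4.92, 8.81 and 10.20 in non-affected and 7.84, 9.74 and 10.91 in affected samples. Affected samples of the joints did not overlap. The non-affected groups overlapped only through the samples that stood apart: femur non-affected 4 at 8.47 lay among the humeral values, and humerus non-affected 5 at 4.92 lay below the other 5 humeral ones, which began at 7.69.

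The MYOC difference between femur and humerus was -3.22 ± 0.61 over both statuses (adjusted p = 0.000236), a 9.29-fold lower femoral signal, which became -3.95 and 15.4-fold without both samples that stood apart. It was -4.23 ± 0.81 in affected samples (adjusted p = 0.000606). In non-affected samples it was -2.14 ± 0.83 and barely called (adjusted p = 0.0494). Leaving out 1 sample ended that last call in 16 of 21 cases, with an adjusted p up to 0.131, and centring (0.0658), quantile normalisation (0.0637) and no filter (0.0546) ended it too. Without both samples that stood apart, which were picked after seeing these values, it was -3.57 (adjusted p = 0.000557).

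**Figure D3:**
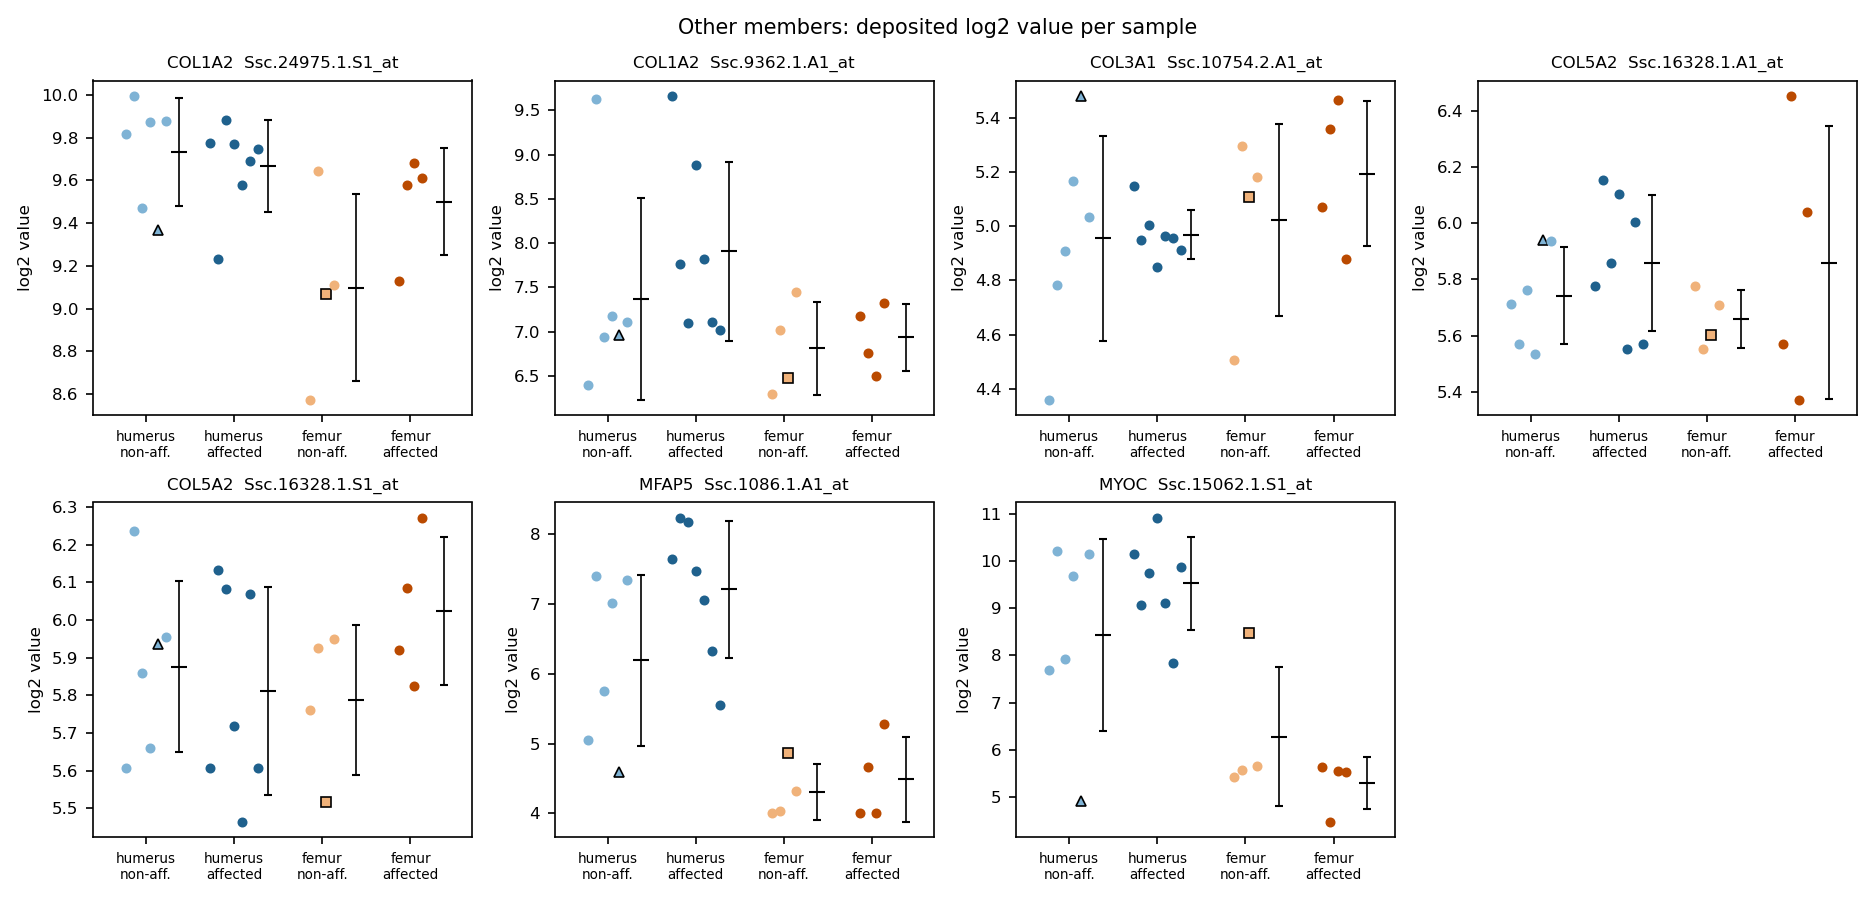
Deposited log2 value of each sample for the other 7 probe sets, by group, with mean and SD beside the points; the triangle is humerus non-affected 5 and the square femur non-affected 4. MYOC is high in the humerus except in the triangle and low in the femur except in the square; MFAP5 is mostly higher in the humerus, where the triangle and humerus non-affected 1 (5.06) lie below the highest femoral value of 5.28; COL5A2 groups overlap throughout.

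Within non-affected cartilage 4 of the 11 tested probe sets were called between the joints, 1 higher and 3 lower in the femur, beside 36.6% of all probe sets (11.6% higher and 25% lower). Within affected cartilage 7 were called, 5 higher and 2 lower, beside 38.5% (13.9% higher and 24.6% lower). Without both samples that stood apart, a choice made after seeing the data, the first count was 7, of which 4 were higher and 3 lower. The balance of the non-affected calls also turned with the scaling, to 4 higher and 1 lower after centring and to 4 higher and 2 lower after quantile normalisation. Groups did not overlap for 1 member among non-affected samples, higher in the femur, as for 7.55% of all probe sets in that direction. Among affected samples they did not overlap for 6, of which 4 were higher (7.33% of all) and 2 lower (12.9%). These 4, like the 5 called higher within affected cartilage, were all COL5A1 probe sets on the same arrays and are not separate observations. With 1 probe set per gene, 3 of 5 members were called within affected cartilage. These site comparisons each use other samples, but a call in one and not in the other does not show that they differ.

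Osteochondrosis itself moved no member past the threshold. Over both sites none of the 11 probe sets was called (0% of all probe sets were), and none had an unadjusted p under 0.05, which 7.28% of all probe sets had. The smallest adjusted p was 0.702, for MFAP5, at 0.70 ± 0.38 higher in affected samples. The median difference of the 11 was 0.11, beside -0.01 over all probe sets tested, and 0.058 without both samples that stood apart.

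In the humerus, too, no member was called, nor was any other probe set (0%), and 2 of 11 had an unadjusted p under 0.05 beside 6.55% of all probe sets. The MFAP5 mean was 7.21 ± 0.98 (SD, n = 7) in affected humerus, against 6.19 ± 1.23 (SD, n = 6) without the disease, a difference of 1.02 with a 95% interval from 0.02 to 2.01 (adjusted p = 0.759). Without humerus non-affected 5 it was 0.70. COL5A1 Ssc.9002.1.A1_at differed by -0.41, with an interval from -0.80 to -0.02 (adjusted p = 0.759), and a single affected sample of 7 exceeded the mean of the non-affected ones.

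The MYOC mean was 9.53 ± 0.98 (SD, n = 7) in affected humerus, against 8.43 ± 2.04 (SD, n = 6) without the disease (adjusted p = 0.789). The difference of 1.097 became 0.40 without humerus non-affected 5, so 1 sample carried most of it.

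In the femur no member was called, where 1.14% of all probe sets were. Of the 11, 1 had an unadjusted p under 0.05, beside 20.4% of all probe sets: COL5A1 Ssc.18545.1.A1_at, at 5.90, 6.32, 6.43 and 6.08 in affected and 5.87, 5.86, 5.33 and 5.84 in non-affected samples. All 4 affected values were above all 4 non-affected ones, as in that direction for 3.01% of all probe sets, with a difference of 0.46 ± 0.15 (adjusted p = 0.119). Without femur non-affected 4 the difference was 0.33. Of the 11 tested probe sets 10 had a higher affected mean, with a median difference of 0.28 beside 0.01 over all probe sets. As 5 of the 11 belong to COL5A1 and all share arrays, they are not separate observations. MYOC was the exception at -0.99 (adjusted p = 0.56). Without femur non-affected 4 the median was 0.18, the MYOC value was -0.26, and COL5A1 Ssc.9002.1.A1_at and Ssc.16329.1.A1_at fell from 0.28 to 0.059 and from 0.30 to 0.12.

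The interaction, which is the femoral minus the humeral status difference, was not called for any member, beside 0.268% of all probe sets. Of the members 3, all COL5A1 probe sets, had an unadjusted p under 0.05, beside 18.9%. All 5 tested COL5A1 probe sets had a higher mean in affected femur and a lower one in affected humerus, and their interactions ran from 0.51 to 1.04 with adjusted p from 0.189 to 0.331. With array weights the humeral value of Ssc.18545.1.A1_at turned from -0.05 to 0.02. Without both samples that stood apart the interactions of all 5 were smaller, at 0.34 to 0.58.

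MYOC and MFAP5 were both higher in the humeral than in the femoral samples on the whole. An exception was femur non-affected 4, with MYOC at 8.47 but MFAP5 at 4.87. The r of MYOC with MFAP5 was 0.86 over all 21 samples and 0.65 after group means were removed. It was 0.75 in the 13 humeral samples and 0.61 in the 12 without humerus non-affected 5, but 0.27 in the 8 femoral samples, where MFAP5 was near the floor. MYOC and COL5A1 Ssc.9002.1.A1_at ran in opposite directions (r = -0.85 over 21 samples and -0.59 after removal of group means). In the 12 humeral samples without humerus non-affected 5 that value was -0.29. These values describe samples that lie largely apart by site, and no p is attached.

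**Figure D4:**
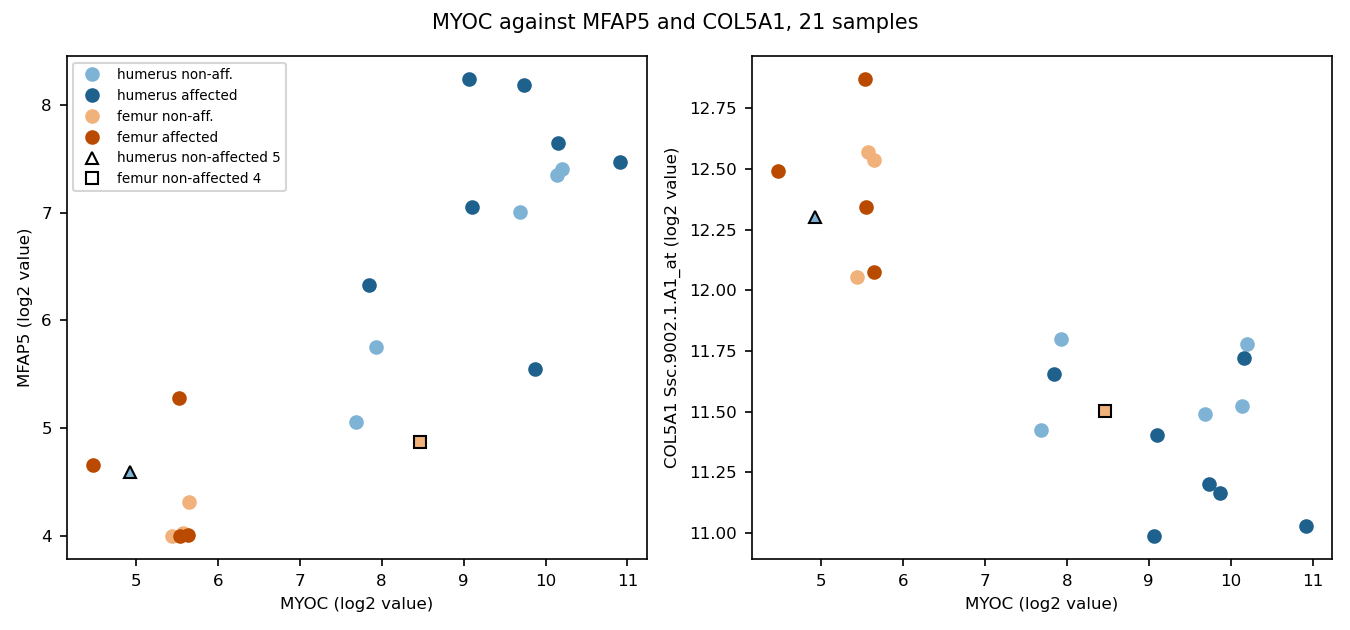
MYOC against MFAP5 (left) and against COL5A1 Ssc.9002.1.A1_at (right), log2 values of the 21 samples coloured by group. Humeral samples lie at high and femoral samples at low MYOC, apart from the triangle (humerus non-affected 5, MYOC 4.92) and the square (femur non-affected 4, MYOC 8.47).

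Among all tested genes with 1 symbol, the 3 most like each member over the 21 samples were found by Pearson's r. For MFAP5 they were CNN1 (r = 0.95, and 0.88 after group means were removed), which encodes the smooth muscle protein calponin, ACTG2 (0.94), a smooth muscle actin gene, and LOC100153598 (0.94). For MYOC they were RFTN1 (0.96, and 0.89 after removal), SESN1 (0.94) and C17H20orf27 (0.94). For COL5A1 Ssc.16329.1.A1_at they were INTS3 (0.99, and 0.93 after removal), LRRC8A (0.98) and SRRM1 (0.96).

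The other COL5A1 probe sets had other neighbours. P4HA2, which encodes an enzyme that hydroxylates collagen prolines, was nearest to Ssc.9002.1.A1_at (0.93, and 0.85 after removal), followed by RHOT2 and SLC1A4, which were also among the 3 nearest to Ssc.31199.1.S1_at with TAB1. LTA, PLAC1 and SDC1 were nearest to Ssc.4993.1.A1_at (0.91 to 0.92), CHDH, SDC1 and LTA to Ssc.16329.1.S1_at (0.84 to 0.86), and SGSM3, PROM2 and GC to Ssc.18545.1.A1_at (0.86 to 0.87). Before removal r was lower for COL1A2 (LPIN2 0.83, ATP2A2 0.79, APLP1 0.79), COL3A1 (CDKN1A 0.78, UBE2L3 0.77, PLK3 0.74) and COL5A2 (HAS3 0.67, ITPA 0.64, APOBEC3B 0.64). That order did not hold after removal. The r of Ssc.18545.1.A1_at with its neighbours was then 0.51 to 0.65. It was 0.65 to 0.74 for COL1A2, 0.70 to 0.79 for COL3A1 and 0.58 to 0.66 for COL5A2.

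Genes around the members in the collagen pathway were read from fixed lists, with the brightest probe set of each gene. In the site comparison over both statuses, 9 of 17 fibrous matrix genes were called, 2 higher and 7 lower in the femur, a share of 52.9% beside 51.8% of all probe sets. The largest were LUM (-2.96, adjusted p = 0.00351), the lumican gene, POSTN (-2.16, adjusted p = 0.00448), which encodes periostin of bone surfaces and fibrous tissue, DPT (-1.83, adjusted p = 0.00678) and ASPN (-1.80, adjusted p = 0.00271). These 4 also passed after centring and after quantile normalisation. The list's median difference was -0.11, close to the -0.12 of all probe sets. After centring 4 were called higher and 6 lower, and after quantile normalisation 5 and 6. These shares, like those of the lists that follow, are to be read against the 17.6% of all probe sets called higher and 34.2% called lower.

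Of 12 genes for collagen processing 2 were called higher and 2 lower. P4HA2 (0.73) and PLOD1 (0.62), for hydroxylation of proline and lysine, were higher in the femur, and PCOLCE2 (-1.02), for an enhancer of propeptide cleavage, and CRTAP (-0.28) were lower. The CRTAP call was lost under both other scalings (adjusted p = 0.435 and 0.194), which called 5 and 4 genes of the list higher and 1 lower.

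Of 5 measured microfibril genes 1 was called higher (FBLN1, 0.68) and 1 lower (MFAP3, -0.76). Of 10 genes for collagen receptors and TGF-beta signalling 3 were called in each direction, among them TGFB3 (0.58) and TGFBR3 (0.49) higher and ITGB1 (-0.68) and TGFB2 (-0.61) lower. Of 10 genes for collagen breakdown none was called higher and 6 lower in the femur, led by MMP3 (-2.02, adjusted p = 0.0162), MMP1 (-1.90, adjusted p = 0.0425) and MMP13 (-1.43, adjusted p = 3.9e-05), which encode matrix metalloproteinases, and CTSK (-0.88, adjusted p = 0.0112), the osteoclast collagenase cathepsin K. The MMP1 call was lost after centring (adjusted p = 0.06) and after quantile normalisation (0.0598), and both scalings called 1 gene of the list higher and 5 lower. As deposited, 1 of the 10 was called lower within non-affected samples (25% of all probe sets). That gene was MMP13. Within affected samples 7 were called lower (24.6%), among them MMP3, MMP1, CTSK and MMP13. The interaction was called for 0 of the 10. No gene of these 5 lists was called in any status comparison as deposited.

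Markers of other cell types moved with site beside the members. In bulk tissue fewer cells of a type and less RNA per cell cannot be told apart. Both called smooth muscle and pericyte markers, of 4 measured, were lower in the femur, CNN1 by -3.08 (adjusted p = 0.000176) and ACTA2 by -2.86 (adjusted p = 0.000412). The mean of that list ran from 6.40 to 8.23 in non-affected and 6.88 to 8.19 in affected femur, and from 6.83 to 9.98 in non-affected and 8.17 to 10.12 in affected humerus. No gene of that list, or of the lists below, was at the floor in every sample. List means take in all listed genes on the array, and counts of calls only those tested. The means thus cover 8 osteoblast, 9 endothelial and 12 skeletal muscle markers, of which 7, 8 and 9 were tested.

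For bone cells, 4 of 7 osteoblast markers were called lower and 1 higher in the femur, with IBSP lowest at -5.57 (adjusted p = 4.21e-05). The osteoblast list mean ran from 6.70 to 8.19 in non-affected and 6.64 to 8.70 in affected femur, and from 7.24 to 10.002 in non-affected and 7.76 to 10.22 in affected humerus. IBSP was at the floor in 3 of 8 femoral samples. Osteoclast markers were called lower in 5 of 6 and higher in 1 of 6, and their mean ran from 6.53 to 7.75 in the femur and from 7.10 to 9.64 in the humerus.

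Of the fibroblast and tendon markers, 3 of 7 were called lower in the femur (TWIST2 -1.15, THY1 -0.77 and PDGFRB -0.54) and none higher. The same 3 were called within affected samples, and 0 of 7 within non-affected samples. The mean of this list lay between 7.72 and 8.71 in the femur and between 8.16 and 9.04 in the humerus. Endothelial markers were called lower in 6 of 8 and higher in 1 of 8, with list means of 5.15 to 6.99 in the femur and 5.92 to 8.09 in the humerus. Macrophage markers were called lower in 7 of 8, with list means of 4.67 to 7.88 in the femur and 5.47 to 9.56 in the humerus. Within non-affected samples 0 of 8 macrophage markers were called, and within affected samples all 8 were, beside 36.6% and 38.5% of all probe sets. In the femur all 8 were lower in affected samples, 7 with an unadjusted p under 0.05 (20.4% of all probe sets), but none was called. Lower site calls in non-affected and in affected samples were 2 and 6 of 8 for endothelial markers.

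Skeletal muscle markers went the other way over both statuses, with 6 of 9 called higher in the femur and none lower. Their list means were 5.002 to 7.96 there against 4.83 to 8.77 in the humerus, the highest in an affected humeral sample. Within non-affected samples 2 of 9 were called higher. Within affected samples 0 of 9 were called, and 3 had a lower mean in the femur. Of 3 adipocyte markers 2 were called higher and 1 lower, with list means of 5.88 to 6.93 in the femur and 5.45 to 7.94 in the humerus. Of 3 erythroid markers 1 was called lower, with list means of 5.07 to 7.13 and 5.53 to 7.999. Cartilage markers were called higher in 1 and lower in 2 of 6. SOX9 (1.15, adjusted p = 0.000513) was higher and HAPLN1 (-0.93, adjusted p = 0.00495) lower in the femur. Both kept their calls after centring and after quantile normalisation. The lower call of ACAN (-0.37, adjusted p = 0.00662) was lost after centring (0.139) and quantile normalisation (0.529), each of which called 2 markers higher and 1 lower. The part of these cell types in the site differences of the members was not tested.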

How the data were processed

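Total RNA of cartilage was labelled with biotin and hybridised to the Affymetrix porcine array, 1 array per sample, 23 in all. The deposited table holds log2 values, which were used as the authors deposited them; GCOS 1.1.1 is named in the submitters' processing notes, and the sources used here do not give the normalisation of the arrays. Array medians ran from 6.05 to 6.33, and the number of arrays limits the precision. Pairs of arrays whose differences had an SD under 0.25 were averaged (humerus affected 5 and 6, SD 0.108; femur non-affected 1 and 2, SD 0.214; next closest pair 0.341), leaving 21 samples. The 124 control probe sets, and the 7200 with a mean under the 30th percentile, were left out of the tests. Gene names came from the platform annotation, which gave 1 symbol for 10099 probe sets, several for 198 and none for 13826.

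limma 3.58.1 in R 4.3.3 (lmFit, eBayes) was fitted to all 16799 remaining probe sets: site and status together for the comparisons over both sites or statuses, and the 4 group means for the rest. For each comparison apart, p-values were adjusted over all tested probe sets (Benjamini-Hochberg); a probe set is called below 0.05. The fits were tested on simulated data. Members, lists and most alternatives were chosen with earlier results of these data known. The named genes are all member probe sets, the 3 genes most like each member gene (by its brightest probe set; each COL5A1 probe set apart), and at most 4 called genes per list, largest difference first. Alternatives covered the filter, scaling, averaged pairs, variance model, array weights, floor, probe sets per gene, samples in the fit and leaving out samples. Plots were drawn with matplotlib 3.10.9.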

Additional observations from a re-analysis of the deposited data

Results flagged for a closer look

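In 7 of 52 groups of values (13.5%) the highest or lowest sample lay far from the others of its group by Dixon's test. Chance flags about 1 in 20 independent groups. These groups share samples and probe sets of the same gene, so the rates cannot be compared. Of the 7 flagged, 2 belong to humerus non-affected 5: COL5A1 Ssc.4993.1.A1_at at 11.91, where the next value was 10.94, and COL5A1 Ssc.16329.1.S1_at at 5.58, where the next was 5.01. Another 2 belong to femur non-affected 4: MYOC at 8.47, next 5.65, and COL5A1 Ssc.18545.1.A1_at at 5.33, next 5.84. The others are COL1A2 Ssc.9362.1.A1_at in humerus non-affected 2 at 9.63, next 7.17, COL5A1 Ssc.31199.1.S1_at in femur affected 4 at 8.42, next 7.45, and MYOC in femur affected 2 at 4.48, next 5.53.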

How the results depend on the processing

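No paired analysis was possible because the labels do not say which samples came from sibs and the replicate numbers were given in accession order. Over both statuses and in affected samples, no alternative ended the site call of a tested COL5A1 probe set, MFAP5 or MYOC, as far as the alternative kept the probe set in the test. The member count for site was 4 over both statuses and 3 in affected samples with 1 probe set per gene, where only 1 COL5A1 probe set is tested. In non-affected samples it was 2 with a stricter filter, which tests fewer probe sets, 2 to 7 with each sample left out, and 7 without humerus non-affected 5 and femur non-affected 4 together, an alternative chosen after seeing the data. No member was called for status or the interaction under any alternative. Over all probe sets, the femoral status calls, 192 as reported, numbered 621 with all arrays separate, 59 with array weights, 4 with only the femoral samples fitted, 53 to 450 with each sample left out and 96 without both samples; the interaction calls, 45 as reported, numbered 224, 21, 15 to 98 and 25 under the same settings other than the femoral fit. Causes other than those named were not tested.

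Differences near 0 changed sign. COL5A2 Ssc.16328.1.A1_at turned to 0.13, 0.10 and 0.16 after centring and to 0.11, 0.073 and 0.15 after quantile normalisation (site over both statuses, in non-affected and in affected samples), and to 0.038 in affected samples with all arrays separate. COL5A2 Ssc.16328.1.S1_at turned in non-affected samples to 0.095 after centring, 0.074 after quantile normalisation and 0.015 without both samples. For status over both sites, COL5A1 Ssc.4993.1.A1_at turned to -0.019 after centring and -0.074 with array weights, and COL5A1 Ssc.31199.1.S1_at to -0.0035 without both samples. COL5A1 Ssc.18545.1.A1_at in the humerus turned to 0.022 with array weights. With each sample left out, the range over both sites was -0.17 to 0.037 for COL5A1 Ssc.16329.1.A1_at, -0.074 to 0.11 for Ssc.31199.1.S1_at, -0.13 to 0.14 for Ssc.4993.1.A1_at and -0.17 to 0.63 for MYOC. In the humerus it was -0.14 to 0.0068 for COL1A2 Ssc.24975.1.S1_at and -0.12 to 0.0073 for COL5A2 Ssc.16328.1.S1_at. In the femur it was -0.046 to 0.34 for COL1A2 Ssc.9362.1.A1_at and -0.080 to 0.37 for MFAP5. For COL5A2 Ssc.16328.1.A1_at it was -0.12 to 0.25 for the interaction, -0.14 to 0.032 for site and -0.20 to 0.16 for site in affected samples, and for Ssc.16328.1.S1_at -0.14 to 0.0025 for site in non-affected samples.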
